A study of Mus musculus with 4 samples.

Results

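The genes for matricellular proteins and fibronectin were described in mouse embryonic fibroblasts (MEFs), cells grown out of embryos, with and without Ip6k1. They were Fn1, Thbs1, Thbs2, Tnc, Sparc, Spp1, Postn, Ctgf, Cyr61 and Nov, 10 of the 27827 gene names on the array. A probe was taken for a gene when the array files gave it exactly that gene name, which yielded 17 of 41174 probes, printed as 35 of 43379 spots. All 17 passed the filter on dim probes, which asks that both lines of either genotype be well above background, as did 21572 probes in all. Inositol hexakisphosphate kinase 1, the product of Ip6k1, makes an inositol pyrophosphate, and the study asked how gene expression differs in cells that lack it. There were 2 Ip6k1+/+ and 2 Ip6k1-/- lines, each grown from 1 embryo of embryonic day 14. According to the labels and methods, the embryos came from a heterozygous mother and father, all 4 lines were immortalised with SV40 large T antigen, and thawed cells were passaged before harvest. The RNA of each line was hybridized to 1 single-colour array, and the 4 arrays shared 1 slide. The replicate is therefore a line, and a difference between genotypes cannot be told apart from a difference between individual immortalised lines, in the cells they hold or in the RNA per cell.

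Fibronectin is a large adhesive glycoprotein that cells assemble into fibrils through integrins. Matricellular proteins are secreted into the same matrix but serve less as scaffold than as modulators of adhesion, growth factor activity and matrix assembly. Fibroblasts are a main source of these proteins in developing and healing connective tissue. Fibronectin and tenascin C transcripts are spliced in several forms, and a probe reads only transcripts that hold its stretch of sequence.

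The probes on which the results turn are shown by their first 30 of 60 bases, in lower case with no base marked, so that the stretch of each transcript that was read can be seen. Positions are those of the array files, whose headers name build mm9. The exon, intron or UTR at these positions was not analysed here, apart from the transcript position that the files give. For thrombospondin 1, probe 1 (A_52_P337092, at base 2578 of the transcript) and probe 2 (A_52_P337086, at base 2865) lie before probe 3 (A_52_P363951, at base 4707), on the forward strand of chromosome 2.
Thbs1 probe 1: tgtggacatcgatggagatggaatcctcaa
Thbs1 probe 2: gtgaccatgacgatgacaatgacggcatcc
Thbs1 probe 3: atatatttattttgttcccctattctggag

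Tenascin C lies on the reverse strand of chromosome 4 and has 3 probes under its name. Probe 2 (A_52_P355169) is the most 5′ of them. Probe 1 (A_51_P324992, chr4:63645878-63645937) follows 29074 bases further on and is tied to a cDNA clone, and probe 3 (A_51_P291438, chr4:63620819-63620864) follows at 54147 bases. A probe that the files list under a transcript identifier, A_52_P278035 at chr4:63645698-63645757, is described in them as tenascin C and lies just beyond probe 1, at 29254 bases. It is not among the 17 and was added after the values of the others were seen.
Tnc probe 2: tcctctagacattgctttcgaaacatggga
Tnc probe 1: catttaacttatggggtgattgtcagggaa
Tnc transcript probe: cccttctggaaaatttaaccatttccgaca
Tnc probe 3: cccagagaaaagaaggatttttaccaaagc

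The probes with the widest genotype differences outside tenascin C were those of periostin (A_51_P489192, chr3:54194483-54194542, forward strand) and of Nov (A_52_P105537, chr15:54584204-54584263, forward strand).
Postn probe: gattaaagtagaatccaccaaagaacatca
Nov probe: aatgaaagatgttccgaatgtaaacttaga

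Across these genes no probe passed the test between genotypes. With limma and Benjamini-Hochberg adjustment over all probes tested, 0 of 17 were higher in Ip6k1-/- MEFs, against 0% of all probes tested, and 0 of 17 were lower, against 0.0139%. At an unadjusted limma p under 0.05, 0 of 17 passed in either direction, against 3.34%. By the fold rule, which asks for a mean difference of at least 1 on the log2 scale with no Ip6k1-/- line closer than 0.9 to the mean of the Ip6k1+/+ lines, 0 of 17 were higher, against 1.06% of all probes tested. By the same rule 2 of 17 were lower, Nov and Tnc probe 1, against 1.87%. Nov passed the filter on dim probes only through its Ip6k1+/+ lines, and 1 probe is left where every line must be well above background. The median difference, Ip6k1-/- minus Ip6k1+/+, was -0.27 over the 17 probes and 0.05 over all probes tested. Of the 17, 11 were lower on average and 6 higher, and 43.5% of all probes tested were lower.

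The spread between lines of 1 genotype was wide for these genes. The median gap between the 2 Ip6k1+/+ lines was 0.95 over the 17 probes and 0.36 over all probes tested, and between the 2 Ip6k1-/- lines it was 0.52 and 0.31 (log2). For 15 of 17 probes, of all 10 genes, the larger of these gaps exceeded the genotype difference, as it did for 80.9% of all probes tested. For 6 of 17 probes, of Fn1, Tnc, Sparc and Postn, the higher Ip6k1-/- line lay below the lower Ip6k1+/+ line, against 12.6% of all probes tested. Among probes without saturated spots it was 5 of 15. The nearest lines of the 2 genotypes almost met for Fn1 probe 1 (0.074 and 0.071), Sparc probe 1 (6.32 and 6.30) and Postn (4.78 and 4.74). The genotypes were separated in the other direction for 1 of 17, that of Spp1, against 18.8%, and its spots were saturated. No line was highest or lowest throughout. The highest value lay in Ip6k1+/+ line 1 for 6 probes, in Ip6k1+/+ line 2 for 5, in Ip6k1-/- line 1 for 5, counting the saturated Spp1 probe, and in Ip6k1-/- line 2 for 1. The lowest lay in Ip6k1-/- line 2 for 7 probes, in Ip6k1+/+ line 2 for 5, in Ip6k1-/- line 1 for 4 and in Ip6k1+/+ line 1 for 1.

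**Figure D1:**
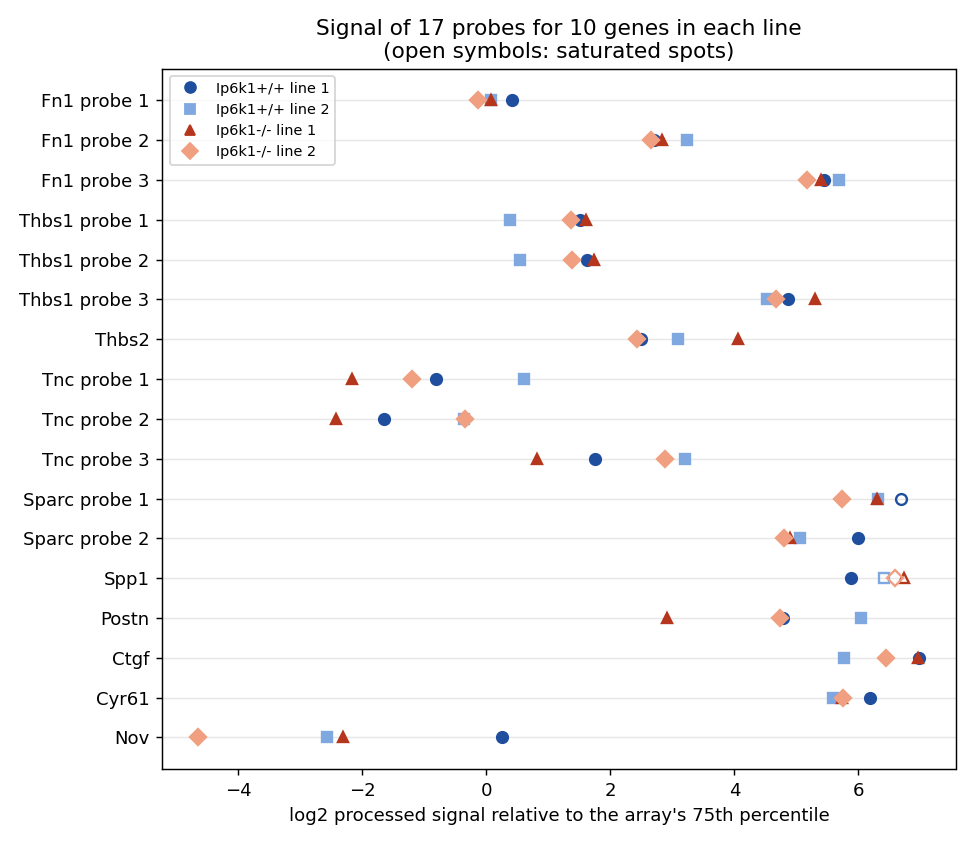
The log2 processed signal relative to the 75th percentile of each array (x axis) is plotted for the 17 probes of 10 genes (y axis), with 1 point per line and probes of a gene numbered along the file's transcript positions. Open symbols are saturated spots, and levels of different probes are not comparable. Among the widest gaps between lines of 1 genotype are those of Nov, Tnc and Postn. Gaps are also wide for Thbs2 (1.63), Ctgf (1.22) and Thbs1 probes 1 (1.12) and 2 (1.08). The Fn1 lines lie closer together than these.

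Before the members, the labels were checked. Ip6k1 probe A_51_P103718 read 2.46 and 2.61 for Ip6k1+/+, against -1.98 and -1.23 for Ip6k1-/-. Its difference of -4.13 missed the threshold, at limma adjusted p = 0.367, so that even a loss of this size could go uncalled. The 2 other probes, with limma adjusted p = 0.0355, were among the 3 that limma called lower over all probes tested. Both missed the scanner's flag for a signal well above background, here called at background, in both Ip6k1-/- lines. Of 12 fibroblast markers, 10 were well above background on all arrays, with summed signals of 515 to 543 times the 75th percentile in Ip6k1+/+ lines and 464 to 498 times in Ip6k1-/- lines. Of the markers listed, 4 of 5 endothelial, 3 of 6 macrophage and blood, 2 of 6 epithelial and 4 of 4 skeletal muscle ones lay at background throughout. Among these were Pecam1, Cdh5, Ptprc, Cdh1 and Myod1. Kdr, Cd68 and Krt18, listed for the first 3 of these cell types, were well above background on all arrays. The remaining epithelial and blood markers were well above background on only some arrays. The 75th percentile itself was a signal of 610 to 747, and 52% to 55.5% of probes were well above background.

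Fibronectin was read by 3 probes, which all differed a little in the same direction. Values are log2 signals relative to the array's 75th percentile, given for Ip6k1+/+ lines 1 and 2 and then Ip6k1-/- lines 1 and 2. Fn1 probe 3 (A_51_P100856), with 10 spots per array, read 5.45, 5.69, 5.39 and 5.18. The genotypes did not overlap, the nearest lines being 0.06 apart. The difference was -0.29 (standard error 0.19, 95% interval -0.79 to 0.22, limma adjusted p = 0.993), or 1.22-fold. The SD of the spots within an array was 0.019 to 0.026, and the spots of the 2 nearest lines overlapped, reaching down to 5.42 in Ip6k1+/+ line 1 and up to 5.44 in Ip6k1-/- line 1. Fn1 probe 1 read 0.41, 0.07, 0.07 and -0.13, with a difference of -0.27. Fn1 probe 2 read 2.71, 3.24, 2.84 and 2.66, with a difference of -0.23, and here 1 Ip6k1-/- line lay above Ip6k1+/+ line 1. The 3 probes gave the same order of genotype means but not the same order of lines, since line 2 was the higher Ip6k1+/+ line on probes 2 and 3 and the lower on probe 1.

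**Figure D2:**
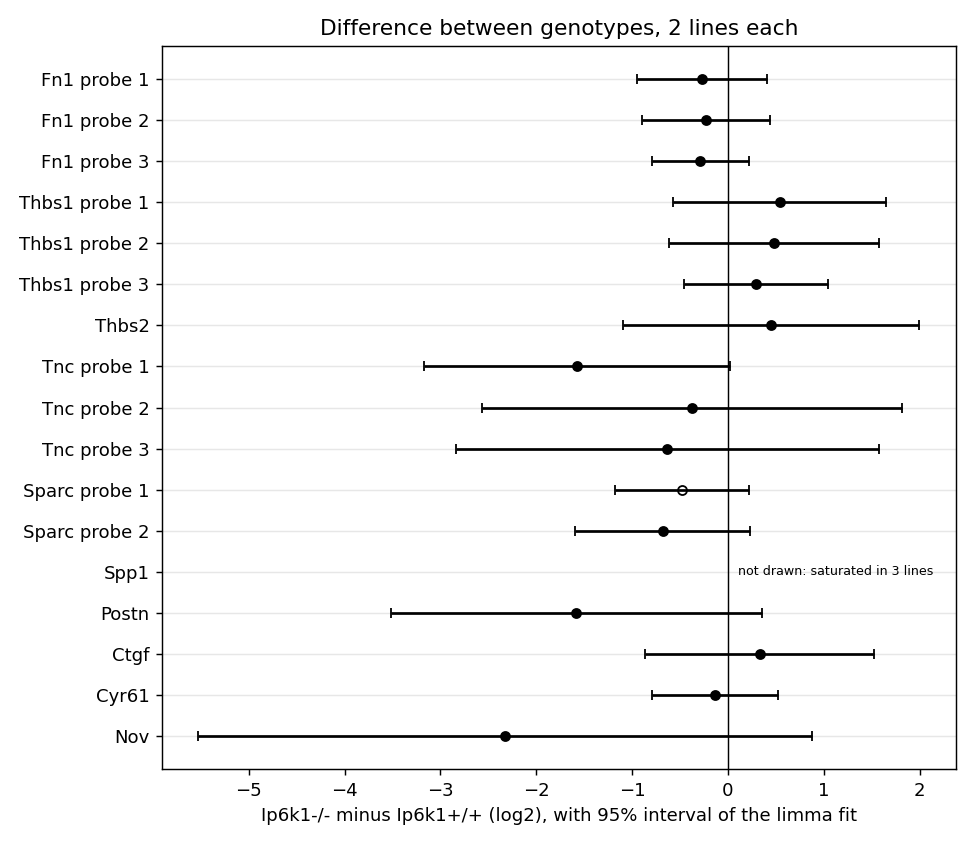
The difference between genotype means, Ip6k1-/- minus Ip6k1+/+ (log2, x axis), is plotted for each probe with the 95% interval of the limma fit. The interval spans 0 for all 15 probes without saturated spots. The open symbol is a Sparc probe saturated in 1 line, and Spp1 is left out because it was saturated in 3.

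The thrombospondins are trimeric or pentameric matrix glycoproteins, and Thbs1 is known as an activator of latent TGF-beta and an inhibitor of vessel growth. Thbs1 probe 1 read 1.51 and 0.38 for Ip6k1+/+, against 1.60 and 1.36 for Ip6k1-/-. Thbs1 probe 2 read 1.62, 0.54, 1.73 and 1.38. On both, Ip6k1+/+ line 2 was the low line and the other 3 lay close together. Their differences were 0.54 (standard error 0.43) and 0.48 (standard error 0.42), and both turned below 0 when that line was left out, at -0.023 and -0.059. Thbs1 probe 3, nearer the 3′ end, read 4.87, 4.52, 5.30 and 4.66, with a difference of 0.29 (95% interval -0.46 to 1.04), and Ip6k1+/+ line 2 stood less apart on it. The limma adjusted p was 0.993 for all 3.

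Thbs2, which is known to limit matrix metalloproteinase levels in tissue, has 1 probe. It read 2.49 and 3.09 for Ip6k1+/+, against 4.06 and 2.43 for Ip6k1-/-. The Ip6k1-/- lines thus held both the highest and the lowest value. The difference was 0.45 (95% interval -1.09 to 2.00, limma adjusted p = 0.993). It was -0.36 without Ip6k1-/- line 1.

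Tenascin C is a hexameric protein of developing and wounded tissue that lessens cell adhesion to fibronectin, and its probes did not all show the same pattern. Tnc probe 3 read 1.76 and 3.21 for Ip6k1+/+, against 0.81 and 2.89 for Ip6k1-/-. Tnc probe 2 read -1.65, -0.37, -2.43 and -0.35. On both outer probes line 2 was high and line 1 low within each genotype. The differences were -0.63 and -0.38 (standard errors 0.84 for each), and each turned above 0 without Ip6k1+/+ line 2 or without Ip6k1-/- line 1.

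Tnc probe 1, whose sequence lies between them, read -0.82 and 0.60 for Ip6k1+/+, against -2.16 and -1.21 for Ip6k1-/-. The nearby transcript probe read -0.04, 1.19, -1.56 and -0.35. On both, the 2 Ip6k1-/- lines lay below the 2 Ip6k1+/+ lines. The differences were -1.58 (standard error 0.61, 2.98-fold) and -1.53 (standard error 0.61, 2.89-fold), at limma adjusted p = 0.993 and unadjusted p of 0.0521 and 0.0562. Both passed the fold rule, which the 2 outer probes did not. The difference of probe 1 was -0.87 without Ip6k1+/+ line 2 and -2.29 without Ip6k1+/+ line 1.

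The 4 tenascin C probes were set against each other within each line, a comparison chosen after the values were seen. The mean of the 2 inner probes minus the mean of the 2 outer probes was -0.48 and -0.53 for Ip6k1+/+, which lay close together, against -1.05 and -2.05 for Ip6k1-/-. The groups did not overlap and the difference was -1.05, with Ip6k1-/- line 2 farthest from the rest. It is given without a test, and an exact two-sided permutation test over 2 and 2 lines cannot go below p = 0.333.

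**Figure D3:**
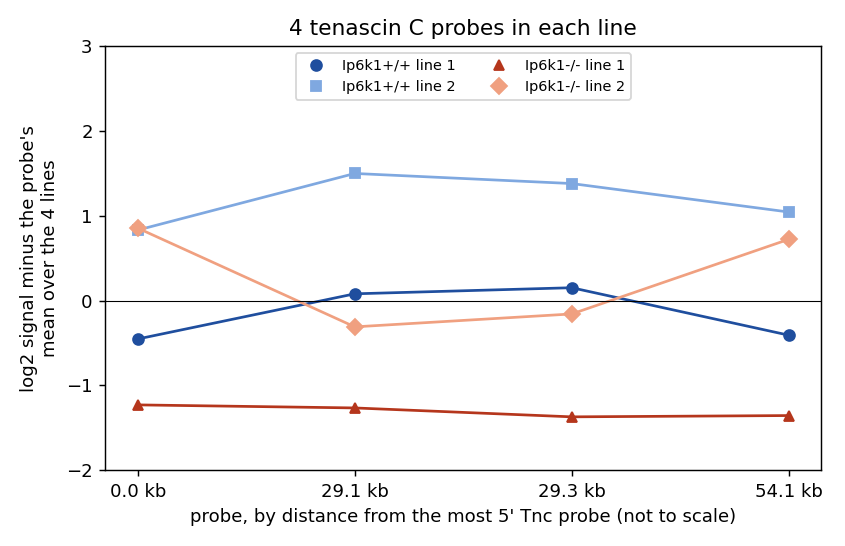
The log2 signal of 4 tenascin C probes, each centred on its mean over the 4 lines (y axis), is plotted in their order along the gene, by distance from the most 5′ probe (x axis, not to scale). Ip6k1-/- line 2 is above the mean on the outer probes and below it on the inner ones, Ip6k1+/+ line 1 is below it on the outer probes and slightly above it on the inner ones, and the 2 other lines keep their side of 0.

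Periostin, a matrix protein of bone and connective tissue that binds tenascin C and collagen, had a wide range. Its probe read 4.78 and 6.04 for Ip6k1+/+, against 2.91 and 4.74 for Ip6k1-/-. Ip6k1-/- line 1 was far below the others, and Ip6k1-/- line 2 lay only just below Ip6k1+/+ line 1. The difference was -1.58 (standard error 0.74, 95% interval -3.52 to 0.36, limma adjusted p = 0.993), or 3.0-fold, and it missed the fold rule through Ip6k1-/- line 2. It was -0.67 without Ip6k1-/- line 1 and -2.50 without Ip6k1-/- line 2. A further probe, which the files name A630052E07Rik and describe as a periostin cDNA, was well above background in 1 of 4 lines and was not tested.

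Periostin and all 4 tenascin C probes had their highest or second highest value in Ip6k1+/+ line 2 and their lowest in Ip6k1-/- line 1. The 2 inner tenascin C probes followed periostin through the whole order of lines, and on the outer ones Ip6k1-/- line 2 lay above Ip6k1+/+ line 1. An order of 4 lines is easily shared, and a common regulation of these genes was not tested. The upstream windows of both genes are shown because of these shared orders, from the RefSeq sequences of build GRCm38.p6 that were at hand. Such windows were matched for 6 of the 10 genes. The 250 bases before the most 5′ start of each gene are given in the direction of transcription, with matches to 4 motifs in capitals. The motifs were searched on both strands over 32851 windows of this length. The core of a TEAD site was written GGAATG, and 12.6% of windows hold it. The AP-1 motif, written TGANTCA, stands in 6.75% of windows. The core of a SMAD site is the short motif CAGAC, which 42.2% of windows hold. The letters TATAAA of a TATA box are present in 12.4% of windows. They were counted at any distance from the start, so a match need not be a working TATA box.
Tnc upstream window, chr4:64047016-64047265, reverse strand: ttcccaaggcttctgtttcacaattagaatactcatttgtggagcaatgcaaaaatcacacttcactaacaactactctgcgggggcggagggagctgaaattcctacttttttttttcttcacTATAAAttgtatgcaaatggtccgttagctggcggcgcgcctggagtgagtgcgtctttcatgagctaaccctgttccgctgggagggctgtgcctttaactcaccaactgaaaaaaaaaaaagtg
Postn upstream window, chr3:54359017-54359266, forward strand: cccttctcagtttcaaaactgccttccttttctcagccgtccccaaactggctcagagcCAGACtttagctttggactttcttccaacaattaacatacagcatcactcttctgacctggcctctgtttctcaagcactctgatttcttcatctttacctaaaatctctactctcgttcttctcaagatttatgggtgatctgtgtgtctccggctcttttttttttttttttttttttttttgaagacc

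The tenascin C window held 1 TATA match and none of the other motifs. The periostin window held 1 SMAD match, and the others were not among its letters. Each gene has a further start in the reference, whose windows both held 1 TATA match. The further Tnc window overlaps the window shown, and its TATA match is the same site. It also held 1 SMAD match. Among the other members, 1 TEAD and 1 TATA match were found for Cyr61, listed in the reference under its present symbol Ccn1. The most 5′ windows of Thbs2 and Spp1 each held 2 SMAD matches and 1 TATA match, and that of Sparc held 1 SMAD match. None of these windows held an AP-1 match.

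Genes whose pattern over the 4 lines was most like that of a member were looked for among 19699 probes that were measured and unsaturated in every line, for the 3 members with the widest range on their brightest such probe. Nov was at background in 1 line and was not searched. Likeness was the root-mean-square difference of the centred log2 signals over 4 lines, a small number of points that come from 1 array each. Nearest to periostin was Smarca1, at 0.10, with readings of -1.30, 0.04, -2.93 and -1.37, followed by the homeobox gene Hoxd8 at 0.12 and the transcriptional repressor gene Hic1 at 0.14. Nearest to Tnc probe 3 was Ypel1 at 0.04, and the sterol acyltransferase gene Soat1 was also near, at 0.13. Nearest to Thbs2 were Gipc2 at 0.06, Tmem51 at 0.10 and the clone AK038328 at 0.11.

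Sparc, a collagen-binding counter-adhesive protein, was read by 2 bright probes. Sparc probe 2 (A_51_P431087) read 6.0 and 5.05 for Ip6k1+/+, against 4.89 and 4.80 for Ip6k1-/-. The Ip6k1-/- lines lay together below both Ip6k1+/+ lines, and Ip6k1+/+ line 1 stood well above the other 3. The difference was -0.68 (standard error 0.35, 95% interval -1.59 to 0.23, limma adjusted p = 0.993), or 1.60-fold. It was -0.21 without Ip6k1+/+ line 1 and -1.15 without Ip6k1+/+ line 2. Sparc probe 1 (A_52_P101852) read 6.68, 6.32, 6.30 and 5.74, and its spot in Ip6k1+/+ line 1 was saturated, so that the Ip6k1+/+ mean is a lower limit there. Its measured difference was -0.48, and Ip6k1+/+ line 2 and Ip6k1-/- line 1 were almost equal on it.

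Osteopontin, the product of Spp1, is a secreted integrin ligand of bone and of inflamed tissue. Its probe, with 10 spots per array, had no saturated spot in Ip6k1+/+ line 1, where it read 5.88 with an SD of 0.025 over 9 spots. In the other 3 lines every spot used was saturated, 8 in Ip6k1+/+ line 2 and 9 in each Ip6k1-/- line, with readings of 6.41, 6.73 and 6.59 that are lower limits. Ip6k1+/+ line 1 was thus the low line. Before scaling the 3 saturated lines stood at log2 signals of 15.95, 15.99 and 15.99, so their order is not known, and no fold between genotypes is given.

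The CCN proteins Cyr61, Ctgf and Nov bind integrins and heparan sulphate, and Cyr61 and Ctgf are well-known targets of the YAP and TAZ coactivators. Cyr61 read 6.18 and 5.58 for Ip6k1+/+, against 5.73 and 5.75 for Ip6k1-/-. The Ip6k1-/- lines lay between the Ip6k1+/+ lines, and the difference was -0.14 (95% interval -0.80 to 0.52, limma adjusted p = 0.993). It was 0.16 without Ip6k1+/+ line 1. For Cyr61 a change larger than 0.80 on the log2 scale in either direction lay outside this interval.

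Ctgf read 6.98 and 5.77 for Ip6k1+/+, against 6.97 and 6.44 for Ip6k1-/-. Ip6k1+/+ line 2 was the low line, and the 2 highest lines, 1 of each genotype, were almost equal. No Ctgf spot was flagged as saturated. Before scaling, however, these 2 lines stood at log2 signals of 16.24 and 16.22, above the saturated Spp1 readings of 15.95 to 15.99. Whether the top of the scanner's range held them together was not tested. The difference was 0.33 (95% interval -0.87 to 1.53, limma adjusted p = 0.993), and it was -0.28 without Ip6k1+/+ line 2. Markers of smooth muscle ran in the same order of lines, with summed signals of 324 and 204 times the 75th percentile in the Ip6k1+/+ lines and 276 and 238 times in the Ip6k1-/- lines. Of the 4 markers, Acta2, Tagln and Cnn1 were well above background on all arrays. Their part in the Ctgf values was not tested, and an order of 4 lines is easily shared among the several marker lists read. A probe described as a CTGF cDNA (A_51_P117890) did not rise well above background anywhere.

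Nov, the third CCN gene, had the widest spread of all members. It read 0.26 and -2.57 for Ip6k1+/+, against -2.31 and -4.65 for Ip6k1-/-, the last not well above background. Ip6k1+/+ line 1 was far above the others, and Ip6k1-/- line 1 lay above Ip6k1+/+ line 2, so that the genotypes overlapped. The difference of the measured values was -2.32 (standard error 1.23, 95% interval -5.53 to 0.88, limma adjusted p = 0.993), with 1 of 2 Ip6k1-/- lines above background, and it was -0.91 without Ip6k1+/+ line 1 and -3.73 without Ip6k1+/+ line 2. Cartilage markers ran in the same order of lines, with summed signals of 7.95 and 2.70 times the 75th percentile in the Ip6k1+/+ lines and 2.79 and 0.347 times in the Ip6k1-/- lines. Of the 4 markers, Sox9, Col2a1 and Acan were well above background on all arrays and Matn1 on none. Their part in the Nov values was not tested. Marker lists of several cell types were read, and other shared orders were met. The fibroblast sum had the order of Sparc probe 1, and the neural sum that of Tnc probe 2.

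**Figure D4:**
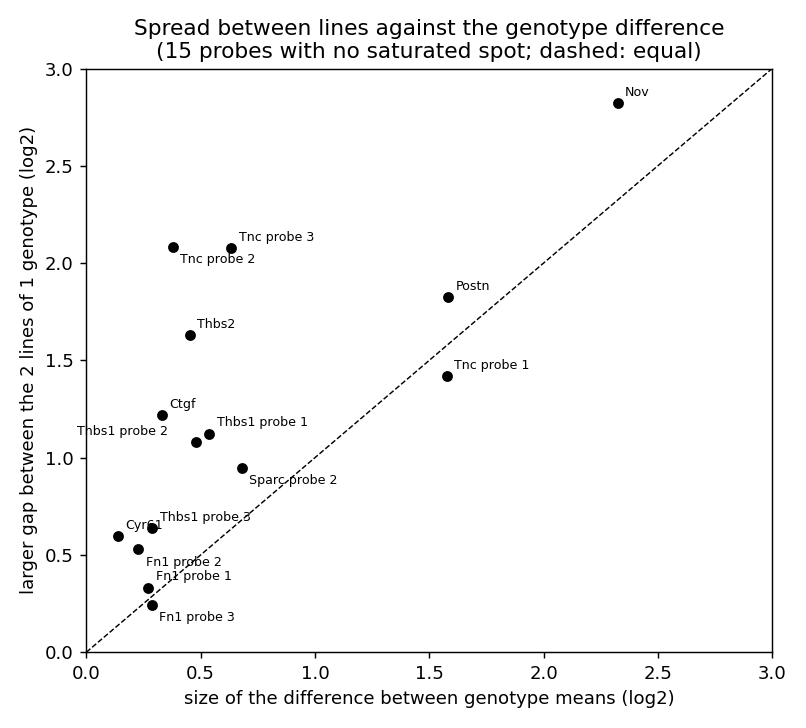
For each of the 15 probes without saturated spots, the larger gap between the 2 lines of 1 genotype (y axis, log2) is plotted against the size of the difference between genotype means (x axis, log2). The dashed line marks equal values. All but Tnc probe 1 and Fn1 probe 3 lie above it.

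Genes that act with these proteins were taken from 4 lists. In the first, relatives from the same families, 16 probes of 12 genes were tested, and limma called 0 in either direction. An unadjusted limma p under 0.05 was reached by 3, against 3.34% of all probes tested. The fold rule found 1 higher (Fbln5) and 3 lower (Smoc1 and both Sparcl1 probes), against the 1.06% and 1.87% above. Every probe found by the rule here passed the filter on dim probes only through the genotype where it was higher. The median difference was 0.05. Sparcl1, the closest relative of Sparc, read -0.09 and -4.25 on probe A_52_P64356 for Ip6k1+/+, with both Ip6k1-/- lines at background. The mean of its Ip6k1+/+ lines was at least 5.83-fold higher on this probe and at least 3.14-fold on the other. These bounds rest mainly on Ip6k1+/+ line 1. On the other probe line 2 read -4.91, below the lowest signals called well above background on the Ip6k1-/- arrays, -4.75 and -4.68, so no bound holds for that line. Smoc1, which shares the SPARC-type calcium-binding domain, read 1.60, -2.53, -3.04 and -6.77, with 1 of 2 Ip6k1-/- lines above background, so that the difference of -4.44 (standard error 1.83) rests on a value at background. Both genes were highest by far in Ip6k1+/+ line 1.

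The Fbln5 probe that passed (A_52_P278336) lay at background in both Ip6k1+/+ lines, and the Ip6k1-/- signal was at least 2.08-fold higher. The brighter Fbln5 probe, A_51_P186703, differed by 0.30. The largest differences among relatives measured in all lines were those of the CCN gene Wisp2, which read 3.99, 0.52, 3.34 and -3.72, and of the periostin relative Tgfbi, which read 4.64, 4.30, 3.85 and 0.35. Both were lowest by far in Ip6k1-/- line 2. Smoc2 and Fbln1 differed by at most 0.81 and 0.48, within gaps between lines that were wider than this.

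Receptors for these proteins were represented by 32 tested probes of 14 genes. Limma called 0, and 8 had an unadjusted limma p under 0.05, against 3.34% of all probes tested. Of these, the Egfr and Itga8 probes were lower in Ip6k1-/- lines, and an Itga3 probe (A_51_P515056) was higher, by 0.69. The other tested Itga3 probes differed by 0.59 and 0.08, and on the latter the genotypes overlapped. The fold rule found 0 higher, against 1.06%, and 7 lower, against 1.87%, which were 4 probes of Egfr, 2 of Itga8 and 1 of Itga9. That Itga9 probe passed the filter on dim probes only through the Ip6k1+/+ lines. The genotypes did not overlap, with Ip6k1-/- lower, for 13 probes, against 12.6% of all probes tested, and with Ip6k1-/- higher for 6, against 18.8%, and the median difference was -0.33. Probes of 1 gene are not independent of each other. Itga8, whose product pairs with Itgb1 to bind fibronectin, tenascin C and osteopontin, read 1.1 and -0.33 on probe A_51_P309920 for Ip6k1+/+, against -1.28 and -1.48 for Ip6k1-/-. Its difference was -1.77 (standard error 0.53, limma adjusted p = 0.993), and the second measured probe gave -1.69.

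Egfr, to which repeats of tenascin C can bind, read 2.98 and 2.60 for Ip6k1+/+, against 1.45 and 1.97 for Ip6k1-/- on probe A_52_P106259. The groups did not overlap, and the difference was -1.08 (standard error 0.28, limma adjusted p = 0.993). The 4 other tested Egfr probes differed by -1.07 to -1.30. Itga9, a receptor subunit for tenascin C and osteopontin, differed by -1.07 on the probe measured in all lines, and Cd47, the thrombospondin receptor, by -0.23 to -0.85 on its 4 probes that were measured in all lines.

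Regulators and shared targets, among them Yap1, the Tead genes, Tgfb ligands and Smad genes, had 26 tested probes. Limma called 0, and an unadjusted limma p under 0.05 was reached by 0, against 3.34% of all probes tested. The fold rule found 0 higher, against 1.06%, and 0 lower, against 1.87%. At such shares few or none of 26 probes would be called. The genotypes did not overlap, with Ip6k1-/- lower, for 5 probes, against 12.6%, and with Ip6k1-/- higher for 1, against 18.8%. The median difference was -0.09. The largest differences were 0.73 for Tgfb3, 0.54 for Tead4, -0.48 for Amotl2 and -0.48 for Tgfb2. Tgfb3, a ligand that induces many matrix genes, read 4.86, 3.40, 5.97 and 3.75, so that line 1 was the higher line of each genotype.

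Enzymes that cleave or cross-link these proteins had 14 tested probes of 9 genes. Limma called 0, and 1 (Plat) had an unadjusted limma p under 0.05, against 3.34% of all probes tested. The fold rule found 0 higher, against 1.06%, and 2 lower, both of Tgm2, against 1.87%. The dimmer of these Tgm2 probes passed the filter on dim probes only through the Ip6k1+/+ lines. The genotypes were separated with Ip6k1-/- lower for 6, against 12.6%, and with Ip6k1-/- higher for 0, against 18.8%. The median difference was -0.61. Tgm2, a transglutaminase that cross-links fibronectin, read 3.79 and 1.33 for Ip6k1+/+, against 1.36 and 0.20 for Ip6k1-/- on its brightest probe, A_52_P220879. The genotypes overlapped slightly there, and the difference was -1.78 (standard error 0.91, limma adjusted p = 0.993). Mmp2, a gelatinase, read 3.60, 3.05, 3.24 and -1.04, so that its difference of -2.22 came from Ip6k1-/- line 2. Bmp1, the procollagen C-proteinase, differed by -0.91 and -0.38 on its 2 probes, and Ctsk by -0.71.

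**Figure D5:**
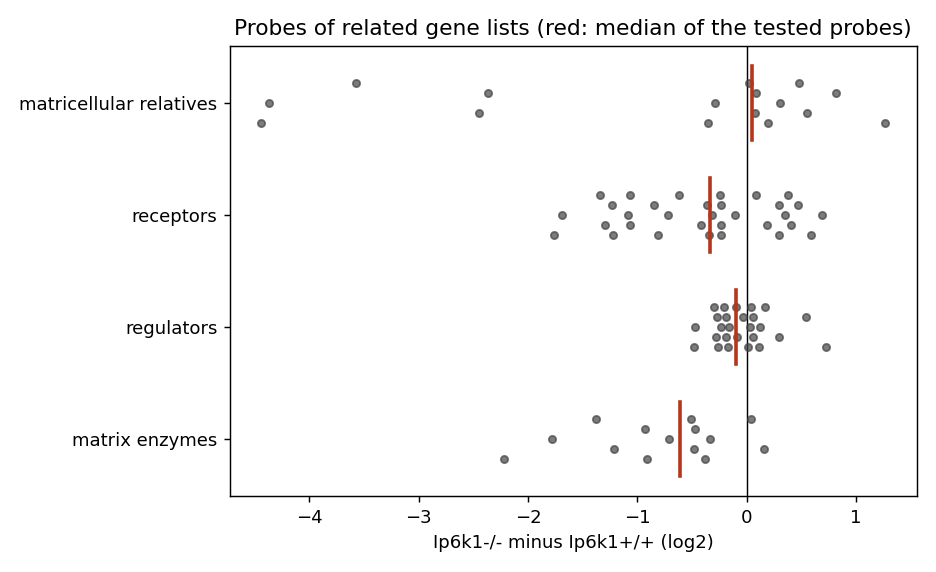
The difference between genotype means (x axis, Ip6k1-/- minus Ip6k1+/+, log2) is plotted for each tested probe of the 4 lists, with the median of each list in red. Regulators lie within 1 of 0, and the widest differences are those of the relatives, where Sparcl1 and Smoc1 reach below -3.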

How the data were processed

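Gene expression in 4 MEF lines was measured with 1 single-colour Agilent array each. The authors deposited the spot intensity from Feature Extraction 10.5.1.1, with background already subtracted, and also log2 values shifted to the 75th percentile in GeneSpring, which served as an alternative. Here the deposited intensity of each spot was put on the log2 scale and centred on the 75th percentile over the 43379 spots other than controls. Spots with an outlier flag were dropped, saturated spots kept, and spots of a probe averaged. The genotype difference was fitted in limma 3.58.1 (lmFit, then eBayes with trend) under R 4.3.3 for 21572 probes, after a test on simulated data, and p-values measure only the spread between lines. The number of arrays limits the precision. For a genotype at background, an "at least" fold replaces its signal by the lowest one called well above background on the same array, where that is higher than its own.

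The members and lists were chosen with earlier results of these data known. All member probes are given. Genes named from each list are up to 4 with the largest difference among probes measured unsaturated in all lines. Those passing the fold rule otherwise (Smoc1, Sparcl1, Fbln5) and A_52_P278035, A_51_P469817 and A_51_P117890 were added after their values or descriptions were seen. Itga3 and Plat were named for an unadjusted limma p under 0.05. Alternatives were other background corrections, scalings, filters and tests, a replicate block, and omission of 1 line at a time. Of the genes with a pattern like that of a member, 1 is not reported here.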

Additional observations from a re-analysis of the deposited data

How the results depend on the processing

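Over 15 settings, 252 differences of member probes were computed. Of these 241 kept their direction and their side of the threshold, and 11, of 9 probes, turned direction, each on leaving out 1 line. Changing the filters on dim probes, the replicate block or the variance trend, flooring dim values or omitting saturated probes left every member difference unmoved. Those settings add to the 241 without bearing on direction. On leaving out 1 line the difference ran from -0.28 (without Ip6k1+/+ replicate 2) to 0.94 for Ctgf, from -0.44 to 0.16 (without Ip6k1+/+ replicate 1) for Cyr61, and from -0.49 to 0.037 (without Ip6k1+/+ replicate 2) for Fn1 probe 2. It ran from -1.67 to 0.40 for Tnc probe 3 and from -1.42 to 0.66 for Tnc probe 2 (both highest without Ip6k1-/- replicate 1, and 0.09 and 0.26 without Ip6k1+/+ replicate 2). It ran from -0.36 (without Ip6k1-/- replicate 1) to 1.27 for Thbs2, from -0.023 to 1.1 for Thbs1 probe 1 and from -0.059 to 1.02 for Thbs1 probe 2 (both lowest without Ip6k1+/+ replicate 2), and from -0.031 (without Ip6k1-/- replicate 1) to 0.61 for Thbs1 probe 3. The cause was not tested. The median difference ran from -0.32 to -0.16. The fold rule found 2 to 5 probes lower (5 without Ip6k1-/- replicate 2) and 0 to 1 higher on leaving out 1 line, and 1 lower where all 4 arrays had to exceed background, since Nov is then not tested. Limma called 0 members in every setting, with a lowest adjusted p of 0.21 under the replicate block and 0.456 elsewhere. The methods' t-test called 0 members, unadjusted or adjusted, beside 849 of all probes unadjusted (3.94%). A replicate block cannot move a mean difference in this balanced design (-1.58 for Postn), and with it the limma adjusted p of Postn was 0.216. The labels tie no replicates of 1 number together, and deviations of same-numbered lines correlated at 0.479 over probes. Leaving out saturated probes, or giving each gene 1 value, both chosen after seeing the data, gave a median of -0.27 and -0.26. The number of lines and the saturation of Spp1 and Sparc limit these values.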
